A study of Mus musculus with 18 samples.

Results

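The change in pseudouridine (Ψ) IP enrichment of microRNAs (miRNAs) between wild-type (WT) cells and cells 3 days after Pus1 knockdown (KD3) was measured in NIH/3T3, a fibroblast line from mouse embryos. The comparison took the log2 ratio of IP to input in KD3 and subtracted the same ratio in WT, from the estimated counts of mapped reads per mature miRNA. It used 12 of the 18 libraries of the study: WT input, WT IP, KD3 input and KD3 IP, each with replicates A, B and C. The 6 libraries made 6 days after knockdown entered only 1 alternative fit. Small RNAs of miRNA size, cut from a gel, were the input, and the IP was the fraction of them held by a monoclonal antibody against Ψ and eluted with Ψ triphosphate. The knockdown was in one cell line, and the labels do not say whether the replicates were separate cultures. The p-values therefore measure the spread between these libraries, which may be technical. Only miRNAs are tabulated, so the level of the Pus1 mRNA is unknown here and the knockdown was not checked.

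Ψ is an isomer of uridine made in RNA by pseudouridine synthases. PUS1 acts on many tRNAs and on some other RNAs. miRNAs are cut from hairpin precursors, and the strand retained by an Argonaute protein, the guide, pairs with target mRNAs mainly through its seed, while the other, passenger, strand is mostly degraded. An antibody IP reports how strongly a miRNA was retained, not which uridine was modified.

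The miRNAs shown first are the let-7 guides with the smallest p (let-7a-5p, let-7f-5p and miR-98-5p) and the smallest change (let-7i-5p). Other abundant miRNAs with the smallest p in each direction follow. None of them passed the test for a change in enrichment given below. Sequences are RefSeq mature miRNAs on GRCm38.p6, written 5′ to 3′ with the seed, bases 2 to 8, in capitals. RefSeq entries matched 463 of the 538 miRNAs tested.
let-7a-5p: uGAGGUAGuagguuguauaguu
let-7f-5p: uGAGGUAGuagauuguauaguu
miR-98-5p: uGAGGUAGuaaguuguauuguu
let-7i-5p: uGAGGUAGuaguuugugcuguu
miR-106b-3p: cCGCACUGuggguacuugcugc
miR-25-3p: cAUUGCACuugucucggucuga
miR-27b-3p: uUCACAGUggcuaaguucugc
miR-9-5p: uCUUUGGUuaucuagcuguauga
miR-199a-3p: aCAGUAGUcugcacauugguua
miR-409-3p: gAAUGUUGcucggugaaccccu
miR-361-3p: uCCCCCAGgugugauucugauuugu
miR-1981-5p: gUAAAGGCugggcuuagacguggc

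The let-7 guides share the seed GAGGUAG, and none of the other miRNAs shown has it. With positions counted from 1 at the 5′ end, let-7f-5p differs from let-7a-5p by 1 base (G12A), miR-98-5p by 2 (G11A and A19U) and let-7i-5p by 4 (G12U, A17G, U18C and A19U). Reads of so similar sequences can be divided among members when they are counted, so the values of single let-7 members are less certain than those of the family. miR-199b-3p has the same sequence as miR-199a-3p, and their reads cannot be told apart.

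RefSeq places let-7a-5p at chr13:48538239-48538260 and let-7f-5p at chr13:48537889-48537910, both on the minus strand in an exon of the noncoding gene 6720427I07Rik, and let-7f-5p also at chrX:151912353-151912374 in an intron of Huwe1. miR-98-5p also lies in an intron of Huwe1, at chrX:151913229-151913250. miR-106b-3p (chr5:138165746-138165767) and miR-25-3p (chr5:138165332-138165353) lie on the minus strand inside Mcm7, which encodes a subunit of the replicative helicase. miR-409-3p (chr12:109743204-109743225) lies in an intron of Mirg, in the imprinted Dlk1-Dio3 region, and miR-361-3p (chrX:113074827-113074851) in an intron of Chm.

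The 12 libraries held 4079020 to 15099781 mapped reads and reads of 640 to 903 mature miRNAs. Replicates of a group correlated across miRNAs with r of 0.986 to 0.998. The spread between replicates was not even: over the 146 miRNAs with a mean of at least 100 counts per 1000000 miRNA reads (CPM), the median SD of log2 CPM was 0.091 in WT input, 0.085 in KD3 input, 0.16 in WT IP and 0.25 in KD3 IP. The share of mapped reads outside miRNA rows was 5.6% ± 0.22 (SD, n = 3) for WT input, 9.66% ± 0.28 for KD3 input, 16.8% ± 1.88 for WT IP and 32.4% ± 5.26 for KD3 IP, and replicate C of the KD3 IP was the highest at 38.2%. This share was higher in IP than in input and higher in KD3 than in WT, and its part in the results below was not tested. CPM are shares of the miRNA reads, so a change in the retention of all miRNAs alike would not be seen.

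Markers of the labelled cell type were present. All 8 miRNAs listed as fibroblast markers were tested, led by miR-21a-5p with 236121 to 5144846 reads per library. Of 5 blood markers none was tested and no library had more than 5 reads of any of them, and 3 of 6 epithelial markers were tested with at most 19 reads per library. Among neural markers miR-124-3p was at most 8 reads and miR-137-3p was at 0. In contrast, miR-128-3p had 2059 to 5532 reads per library and miR-9-5p, which is best known from neural progenitors, had 21649 to 49741. The liver marker, miR-122-5p, had 180 to 642 reads per library.

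No miRNA passed the test for a change in enrichment. Of 538 miRNAs, 0 (0.00%) had an adjusted p under 0.05 in edgeR's quasi-likelihood test with Benjamini-Hochberg adjustment, and the smallest adjusted p was 0.167. At an unadjusted p under 0.05 there were 42, of which 36 (6.69% of those tested) were higher in KD3 and 6 (1.12%) lower. DESeq2, run on the 1175 miRNAs with a rounded count above 0, called 1, miR-409-3p, and the edgeR fit without an abundance filter called 2, miR-17-3p and miR-21a-3p. The replicates can also be compared without a model, by forming the 9 possible IP to input ratios of a condition: all 9 KD3 ratios lay above all 9 WT ratios for 14 miRNAs (2.60%) and below them for 4 (0.743%).

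The pattern of enrichment was shared by both conditions. In WT, 150 miRNAs (27.9%) were higher in IP than in input and 230 (42.8%) lower in edgeR's test, and in KD3 these were 172 (32.0%) and 224 (41.6%). Of these, 352 passed in both conditions with the same direction, 140 higher and 212 lower in IP, and 0 passed in both with opposite directions. Across miRNAs the WT and KD3 ratios correlated with r = 0.925 over 538 and r = 0.994 over the 146 with at least 100 CPM, as a description of miRNAs that share libraries and normalization. The median change of all miRNAs was 0.14 on the log2 scale. This median moved with the scaling, to 0.02 with relative log expression factors, to 0.07 with no factors and to -0.18 with total mapped reads as library size. It also moved in the 12 fits that left out 1 library, which were filtered and scaled anew and tested 564 to 588 miRNAs. It was below 0 in 10 of them, and ran from -0.17 without replicate C of the KD3 IP to 0.10 without replicate B of the WT IP. All 12 values lay below the 0.14 of the full fit, and the parts of the library and of the new filter and scaling were not told apart. Changes are therefore also given relative to the median of all miRNAs.

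**Figure D1:**
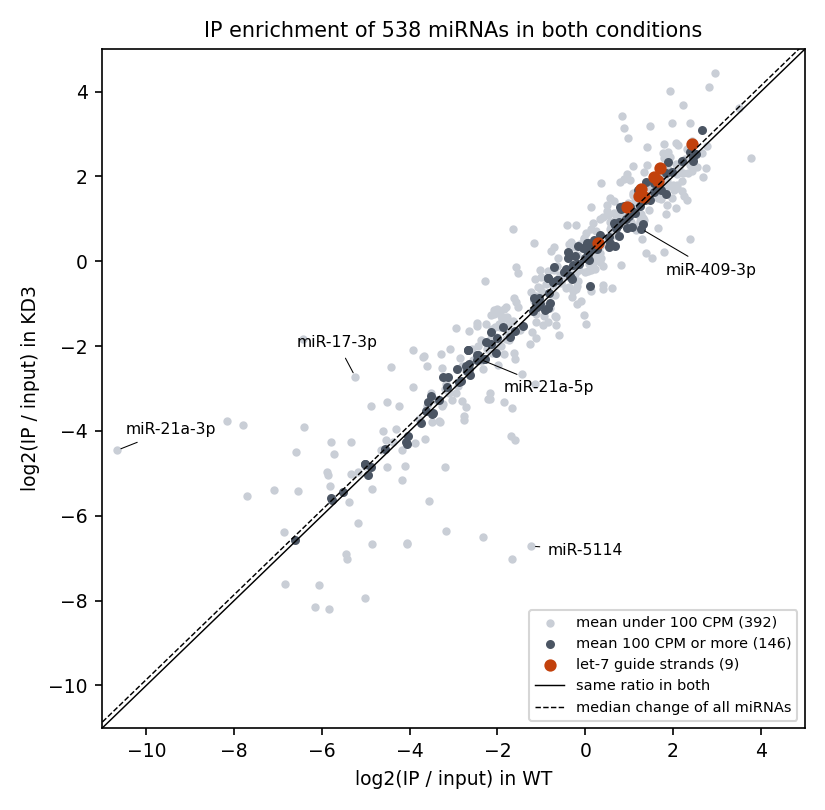
Log2 ratio of IP to input in WT (horizontal axis) and in KD3 (vertical axis), one point per miRNA, for 538 miRNAs. Abundant miRNAs, with a mean of at least 100 CPM, follow the line of equal ratios closely with r = 0.994, the 9 let-7 guides lie at or above the dashed line of the median change, and the points far from the lines, such as miR-17-3p, have few reads.

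For abundant miRNAs the data also bounded the change. The 95% interval of the change lay within a 2-fold difference in either direction for 208 of all 538 miRNAs (38.7%) and for 136 of the 146 with at least 100 CPM (93.2%), which together hold 99.4% of the mean CPM. The fitted changes of these 146 ran from -0.69 (miR-1981-5p) to 0.61 (miR-221-3p), with quartiles of 0.02 and 0.28. The median SE was 0.22 for them and 0.43 over all 538. For the 10 most abundant miRNAs in WT input the changes ran from -0.18 ± 0.24 (SE) for miR-199a-5p to 0.46 ± 0.19 for miR-199a-3p.

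miR-21a-5p, a growth-promoting miRNA and the most abundant in these cells, had similar fitted ratios in both conditions, with a wide spread in the KD3 IP. It stood at 379367, 361876 and 417686 CPM in WT input and at 391214, 368604 and 374280 CPM in KD3 input, and at 68928, 83077 and 64416 CPM in WT IP against 93861, 84199 and 52411 CPM in KD3 IP. Both IP groups lay far below both input groups and overlapped each other. The log2 ratio was -2.42 ± 0.16 (SE) in WT and -2.30 ± 0.16 in KD3, a change of 0.12 ± 0.22, and edgeR's interval of the change ran from -0.34 to 0.58. miR-10b-5p, encoded in the Hoxd cluster, was enriched in both conditions by 1.36 ± 0.13 and 1.44 ± 0.13, a change of 0.08 ± 0.18.

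**Figure D2:**
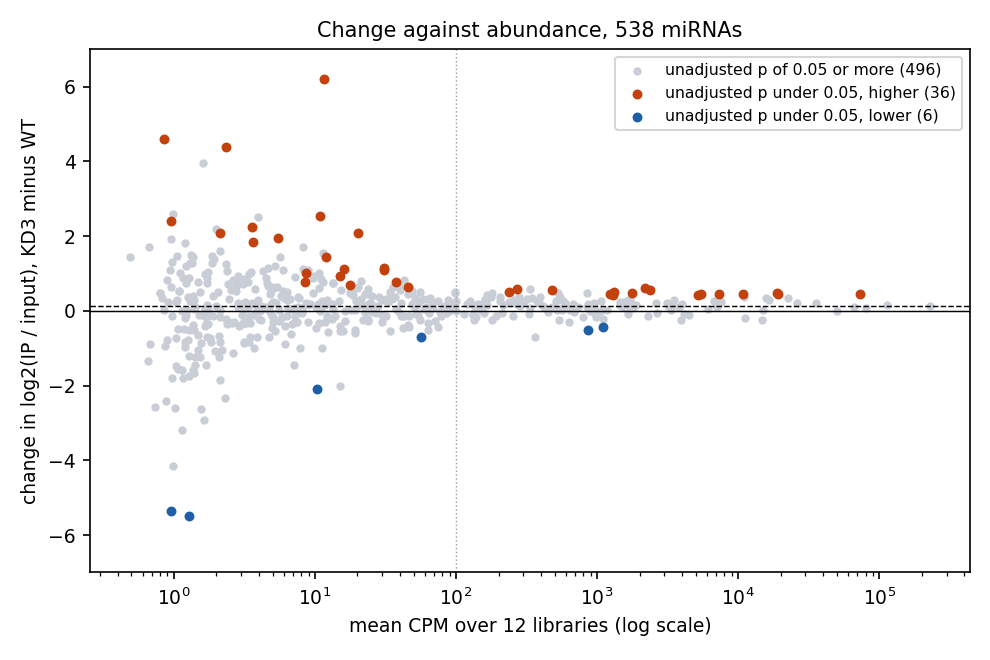
Change in log2(IP / input), KD3 minus WT, against the mean CPM over the 12 libraries on a log axis, one point per miRNA. Points widen toward low abundance, and 24 of the 42 miRNAs with an unadjusted p under 0.05 lie left of the dotted line at 100 CPM.

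The let-7 guide strands, which restrain Lin28, Hmga2 and other growth genes in differentiated cells, were enriched in the IP in both conditions, and their median change lay above that of all miRNAs. All 9 passed the test of IP against input in WT and in KD3, with median log2 ratios of 1.33 and 1.71. In the test of the change 0 of 9 passed, with adjusted p of 0.501 to 0.819 in edgeR's quasi-likelihood test with Benjamini-Hochberg adjustment. In that test 3 had an unadjusted p under 0.05, all higher. Beside them, 6.69% of all miRNAs and 16 of the 146 with at least 100 CPM were higher at that threshold. The median change was 0.33 beside 0.14 for all miRNAs, and 9 of 9 lay above the median of all. The other 3 scalings gave the same count, but a scaling shifts all miRNAs nearly alike, so they could hardly change it. Above 0 there were 9 of 9, but 5 of 9 with total mapped reads as library size. Without replicate C of the KD3 IP there were 3 of 9. That fit was filtered and scaled anew, and its median fitted change was -0.08 for the family beside -0.17 for all miRNAs. The study chose this family on these libraries, so its direction is not independent evidence.

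let-7f-5p stood at 44132, 42896 and 39418.5 CPM in WT input and at 36852, 35722.5 and 33613 CPM in KD3 input. In the IP it stood at 91465, 96739 and 115601 CPM in WT and at 120589, 109617 and 116821 CPM in KD3. The inputs did not overlap and were lower in KD3, and the IP groups overlapped. A lower input was common: the mean input was lower in KD3 for 101 of the 146 miRNAs with at least 100 CPM. The share of miRNAs whose inputs or IP groups did not overlap was not counted. A separation given here or below is therefore not read as particular to a miRNA. The log2 ratio of let-7f-5p was 1.26 ± 0.11 (SE) in WT and 1.71 ± 0.11 in KD3, a change of 0.44 ± 0.15 (1.36-fold, 95% interval 1.09 to 1.70), with an unadjusted p of 0.00887 and an adjusted p of 0.501 in edgeR's test.

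let-7a-5p had inputs of 8332, 8197 and 8357 CPM in WT and 6985, 7192 and 7026 CPM in KD3, and IP values of 22384, 26176 and 32989.5 CPM in WT and 27879, 32080 and 37337 CPM in KD3. Inputs again did not overlap, whereas IP did. The fitted change was 0.49 ± 0.19 (SE), the highest of the family. miR-98-5p, a let-7 member by its seed, had a change of 0.44 ± 0.18, and let-7i-5p, the most abundant member at a mean of 113757 CPM, had the lowest, 0.15 ± 0.14. Without replicate C of the KD3 IP the family median relative to all miRNAs was 0.09 in place of 0.20, and 7 of 9 members lay above the median of all.

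**Figure D3:**
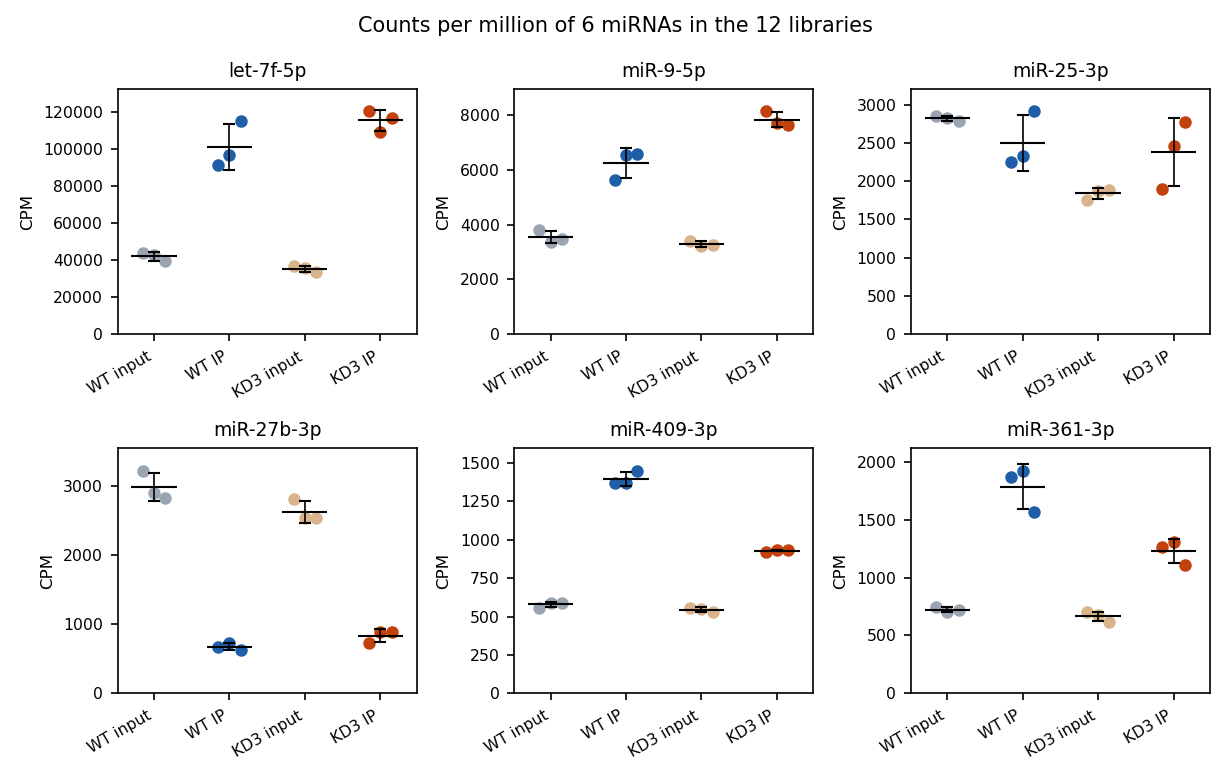
CPM of 6 miRNAs in the 12 libraries, with a point per library, a line at the group mean and bars of 1 SD (n = 3), and a vertical axis that starts at 0 in each panel. let-7f-5p, miR-9-5p, miR-25-3p and miR-27b-3p had a higher IP to input ratio in KD3 than in WT, and miR-409-3p and miR-361-3p a lower one.

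Of 12 let-7 passenger strands listed, 11 were tested. Their median change was 0.03, and 5 lay above the median of all miRNAs. They ran from -1.998 ± 1.31 (SE) for let-7i-3p to 1.44 ± 0.46 for let-7f-2-3p, a strand with 4, 12 and 14 reads in WT IP and 16, 6 and 27 in KD3 IP.

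The other 4 miRNAs that the study singled out on these libraries had no common direction. All 4 were higher in IP than in input in both conditions, and the median change was 0.30 with 2 above and 2 below the median of all. miR-30c-1-3p, from the opposite arm of a miR-30 hairpin in an intron of Nfyc, had 23.4, 22.7 and 15.98 CPM in WT IP against 24.1, 24.2 and 24.99 CPM in KD3 IP, and 16.9, 13.6 and 13.1 CPM in WT input against 11.5, 9.51 and 11.4 CPM in KD3 input. The inputs and the IP libraries each separated WT from KD3 without overlap, and the change was 0.68 ± 0.30 (SE) with an unadjusted p of 0.0358 in edgeR's test. miR-16-5p, which targets cell-cycle genes, had a change of 0.48 ± 0.31, miR-20a-5p, of the Mir17hg cluster, 0.12 ± 0.26, and miR-342-3p, from an intron of Evl, -0.16 ± 0.27. Without replicate C of the KD3 IP the relative median of these 4 turned from 0.16 to -0.19. In that library miR-16-5p stood at 1045 CPM against 438 and 648 in the other KD3 IP libraries, and miR-20a-5p at 2423 against 1225 and 1334 CPM.

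**Figure D4:**
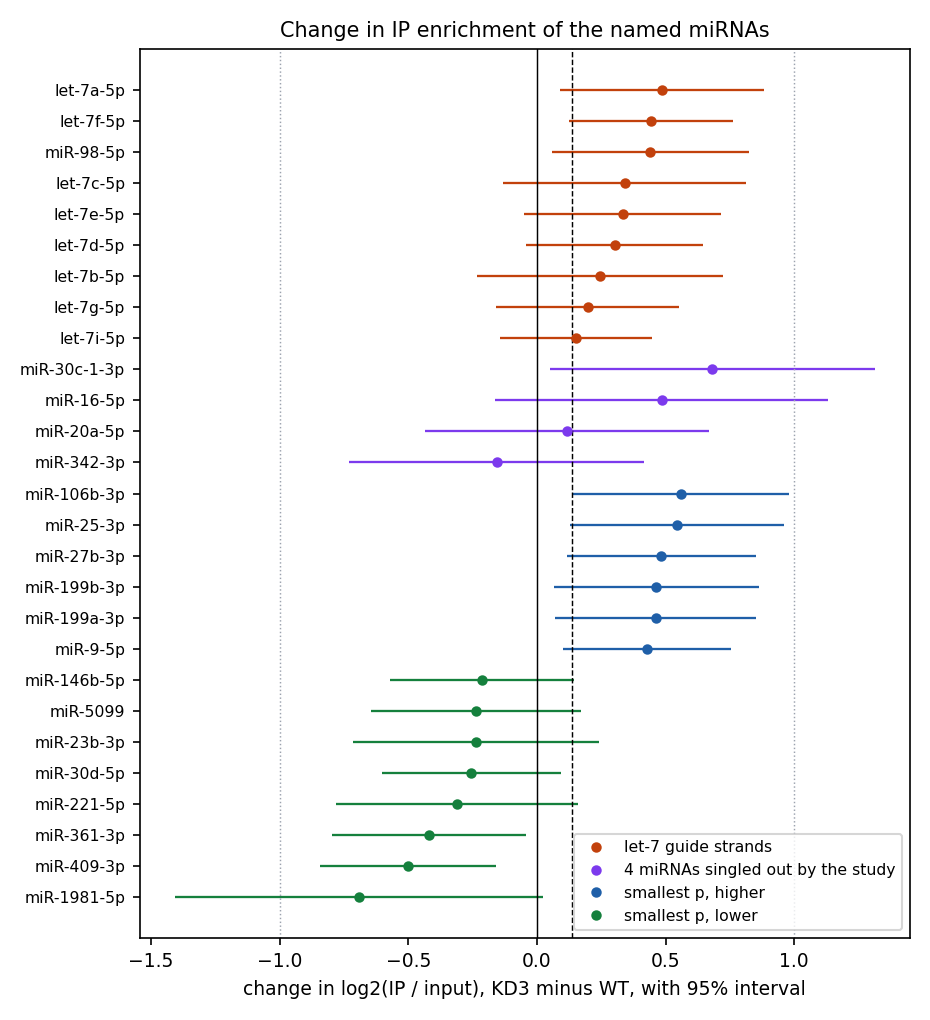
Change in log2(IP / input), KD3 minus WT, of the let-7 guides, the 4 other miRNAs of the study and the abundant miRNAs with the smallest p in each direction, with 95% intervals. The dashed line marks the median of all miRNAs, 0.14, and dotted lines mark 2-fold, which the intervals of miR-30c-1-3p, miR-16-5p and miR-1981-5p cross.

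Among the 146 abundant miRNAs, 16 had a higher ratio in KD3 and 2 a lower ratio at an unadjusted p under 0.05, beside 36 (6.69%) and 6 (1.12%) of all 538. For 11 of the 16 the mean input was lower in KD3 than in WT, beside 101 of all 146, and for 14 the mean IP was higher, beside 78 of 146. The 16 were chosen for a higher ratio in KD3, so a lower input or a higher IP follows from the choice. Without replicate C of the KD3 IP the fitted changes of the 8 of these 16 with the smallest p ran from 0.03 (miR-199a-3p) to 0.29 (miR-106b-3p), with a median of -0.17 for all miRNAs in that fit. Beside them, the median log2 difference of KD3 from WT over the 146 was -0.14 in input and 0.02 in IP.

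miR-106b-3p and miR-25-3p come from one Mcm7-hosted cluster related to Mir17hg. For miR-106b-3p the log2 ratio was -0.70 ± 0.14 (SE) in WT and -0.14 ± 0.14 in KD3, a change of 0.56 ± 0.20 with an adjusted p of 0.501 in edgeR's test. Its input was 652, 596 and 587 CPM in WT and 461, 462 and 540 CPM in KD3, and its IP was 334, 352 and 440 CPM in WT and 475, 405 and 442 CPM in KD3. Inputs were lower in KD3 without overlap, and the IP groups overlapped.

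miR-25-3p stood at 2849, 2822 and 2789 CPM in WT input and at 1757, 1877 and 1882 CPM in KD3 input, with IP values of 2252, 2332 and 2912 CPM in WT and 1897, 2458 and 2776 CPM in KD3. The inputs were far apart and the IP groups overlapped, and the change was 0.55 ± 0.20 (SE).

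miR-27b-3p is a regulator of lipid genes. Its IP was 670, 724 and 634 CPM in WT and 723, 890 and 885 CPM in KD3, and its input was 3216, 2898 and 2826 CPM in WT and 2808, 2538 and 2527 CPM in KD3. The inputs did not overlap and the IP groups overlapped by less than 1 CPM. It was depleted in the IP in both conditions, and its change was 0.48 ± 0.18 (SE). miR-9-5p, in contrast, was enriched in both, with an IP of 5628, 6540 and 6585 CPM in WT and 8144, 7720 and 7627 CPM in KD3. These IP groups did not overlap, while the inputs of 3378 to 3790 CPM in WT and 3228 to 3418 CPM in KD3 did. Its change was 0.43 ± 0.16.

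miR-199a-3p is a mesenchymal miRNA with loci in the antisense transcript Dnm3os and opposite an intron of Dnm2. It had inputs that overlapped and an IP of 6629, 7737 and 7303 CPM in WT against 7798, 10287 and 12089 CPM in KD3. The 3 KD3 IP values lay above all WT IP values, and the change was 0.46 ± 0.19 (SE). Without replicate C of the KD3 IP the fitted change was 0.03 and the relative change 0.20 in place of 0.32.

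miR-409-3p had the smallest p of the abundant miRNAs, in the opposite direction. Its input was 558, 588 and 590 CPM in WT and 557, 551 and 527 CPM in KD3, and its IP was 1366, 1371 and 1449 CPM in WT and 922, 931 and 934 CPM in KD3. The KD3 IP libraries lay close together and below every WT IP library, and the inputs were also lower in KD3 without overlap. The log2 ratio was 1.27 ± 0.12 (SE) in WT and 0.77 ± 0.12 in KD3, a change of -0.50 ± 0.16 (0.71-fold, 95% interval 0.56 to 0.90). edgeR's quasi-likelihood test gave an unadjusted p of 0.00651 and a Benjamini-Hochberg adjusted p of 0.501, and DESeq2 an adjusted p of 0.000336. Its relative change was -0.69 to -0.61 over the 21 alternatives, and it passed in 1 of them.

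miR-361-3p had IP values of 1871, 1923 and 1561 CPM in WT and 1267, 1304 and 1107 CPM in KD3, without overlap, with inputs of 704 to 745 CPM in WT and 619 to 701 CPM in KD3. Its change was -0.42 ± 0.18 (SE). The other 6 abundant miRNAs of the lower group had unadjusted p of 0.0571 to 0.313 in edgeR's test and changes of -0.69 ± 0.34 for miR-1981-5p, -0.31 ± 0.23 for miR-221-5p, -0.26 ± 0.17 for miR-30d-5p, -0.24 ± 0.19 for miR-5099, -0.24 ± 0.23 for miR-23b-3p and -0.21 ± 0.17 for miR-146b-5p. miR-1981-5p was the one of these whose input was higher in KD3, at 415 to 519 CPM against 299 to 326 CPM in WT, and replicate C of the KD3 IP, at 163 CPM, lay below the other IP libraries of 281 to 416 CPM.

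Families and clusters were described by their counts and medians. The change passed for no member of any list. The highest relative median among lists with at least 3 tested members was that of miR-10 and miR-196, which are encoded among the Hox genes, at 0.41 with 3 of 4 above the median of all, from 0.08 ± 0.18 (SE) for miR-10b-5p to 0.84 ± 0.60 for miR-196a-5p. The 3p strands of the miR-30 family had a relative median of 0.32 with 6 of 6 above, from 0.14 ± 0.19 for miR-30a-3p to 0.68 ± 0.30 for miR-30c-1-3p, and 0.13 with 5 of 6 above without replicate C of the KD3 IP. Their 5p strands, the guides, had a relative median of -0.10 with 1 of 5 above. The miR-181 family, known from lymphocyte development, stood at 0.28 with 4 of 4 above, but at 0.08 with 3 of 4 without replicate B of the KD3 IP. The miR-19 and miR-25/92 families stood at 0.24 with 5 of 6 above, from -0.53 ± 0.52 for miR-19a-3p to 0.55 ± 0.20 for miR-25-3p, and at 0.11 with 4 of 6 without replicate C of the KD3 IP. The family of miR-15, miR-16 and miR-195 stood at 0.24 with 5 of 6 above, but at -0.11 without replicate C of the KD3 IP, and the seed family of miR-17, miR-20, miR-93 and miR-106 at 0.02, but at -0.32 without that library.

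Lists at or below the median of all miRNAs included the fibroblast markers, with a relative median of -0.02, and the mesenchymal clusters of miR-199, miR-214, miR-143 and miR-145, at -0.07. The imprinted Dlk1-Dio3 cluster, which holds miR-409-3p, had 55 tested members, with a relative median of -0.03, and 4 members were higher and 1 lower at an unadjusted p under 0.05, near the 6.69% and 1.12% over all miRNAs. The miRNAs made without Drosha, such as mirtrons, stood at -0.15 with 2 of 6 above, and the miR-34 family, which responds to p53, at -0.12 with 1 of 5 above. The other families listed had relative medians from -0.14 for miR-130 with miR-301 to 0.24 for the miR-26 family, which lies in introns of Ctdsp genes. Both turned with 1 library: the miR-26 family stood at -0.06 without replicate C of the KD3 IP, and miR-130 with miR-301 at 0.25 without that library, at 0.06 without replicate A of the KD3 IP and at -0.59 without replicate C of the WT input. Among markers of other cell types, relative medians were 0.24 over the 3 epithelial miRNAs tested, which had few reads, 0.11 over 2 neural miRNAs and -0.10 for miR-122-5p, the liver marker. Of 29 lists with a tested member, 12 kept the sign of their relative median under all 21 alternatives, 7 above the median of all (the let-7 guides, miR-30 3p, miR-181, miR-10 with miR-196, miR-19 with miR-25/92, and the epithelial and neural markers) and 5 below it (miR-30 5p, miR-221 with miR-222, miR-34, the miRNAs made without Drosha and the liver marker). The alternatives refit the same libraries, and a scaling hardly moves a value taken relative to the median. The epithelial value ran from 0.01 to 0.65 over the alternatives, and the liver list had 1 member.

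**Figure D5:**
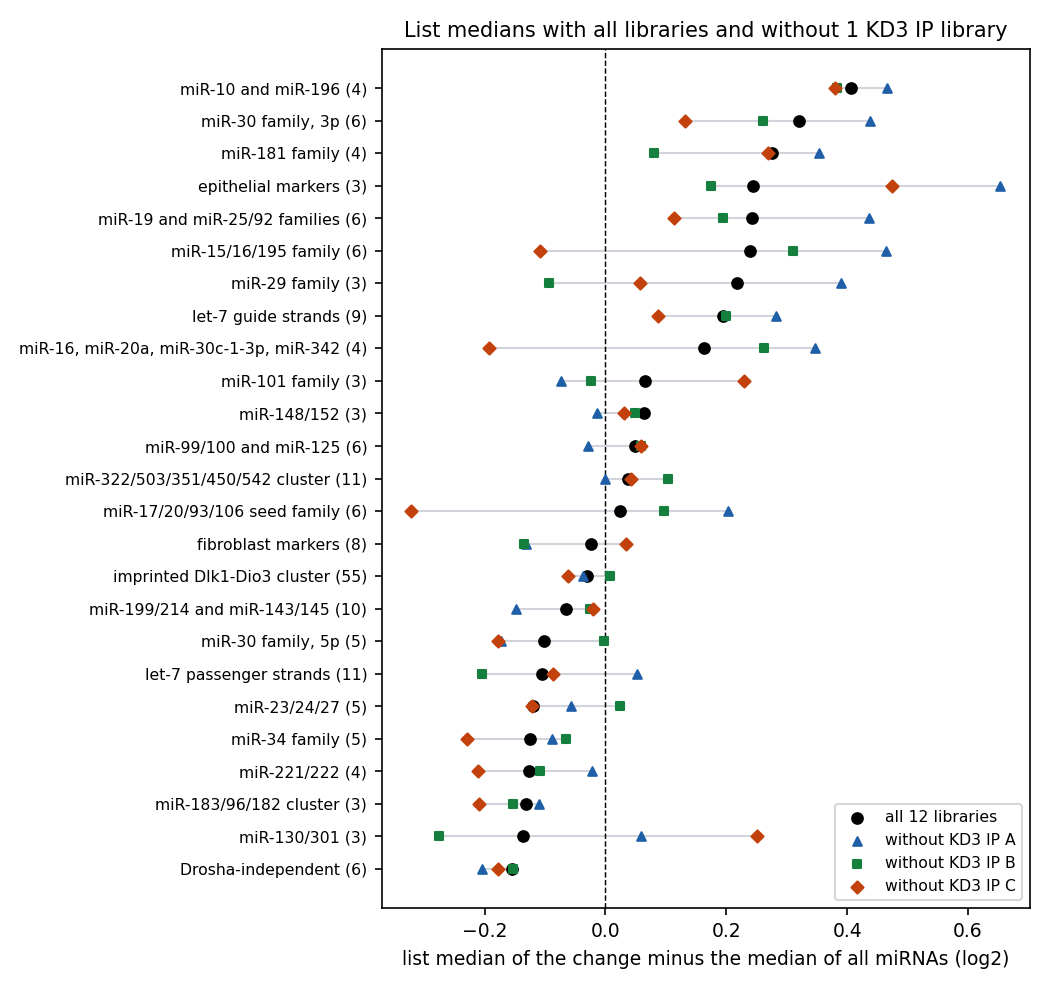
Median change of each list with at least 3 tested members (number in brackets) minus the median of all miRNAs, on the log2 scale, with all 12 libraries and without each KD3 IP library in turn. The medians lie within 0.41 of 0 with all libraries, and leaving out replicate C moves the families of miR-15 and of miR-17 to -0.11 and -0.32.

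The smallest p of all belonged to miRNAs of few reads, which were named after their values were seen. Of the 4 smallest, 3 were nearly absent from the IP. miR-17-3p, the passenger strand of a Mir17hg hairpin, had 4, 3 and 2 reads in WT IP and 5, 8 and 23 in KD3 IP, beside 156 to 286 in WT input and 132 to 238 in KD3 input. Its fitted change was 2.53 ± 0.57 (SE), and 23 of the 36 KD3 IP reads were in replicate C. That library held 6276114 miRNA reads against 2993777 in replicate A and 2809155 in replicate B, so these reads are not on one scale. For miR-17-3p edgeR's adjusted p was 0.167 with the abundance filter and 0.0368 without it. miR-21a-3p, the passenger strand of miR-21a, had 0 reads in all WT IP libraries and 3, 0 and 8 in KD3 IP, so that no fold is given. Its adjusted p was 0.256 with the filter and 0.0160 without. miR-1a-3p, a muscle miRNA, had reads in every library: 10, 30 and 20 in WT IP, 19, 31 and 43 in KD3 IP, 13 to 24 in WT input and 7 to 13 in KD3 input. Its fitted change was 2.25 ± 0.62 (SE). miR-18a-5p, also of Mir17hg, had 2, 4 and 2 reads in WT IP and 8, 4 and 4 in KD3 IP, beside 385 to 584 in WT input and 223 to 392 in KD3 input.

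Median changes by sequence composition were as follows. Over 463 tested miRNAs with a RefSeq sequence, the median change was 0.14 in the tertile with the lowest uridine content (at most 23.8%), 0.15 in the middle tertile and 0.15 in the highest (above 31.8%), and the change correlated with uridine content at r = -0.02. Among the 128 abundant ones r was 0.17, and 16 of the 128 were higher at an unadjusted p under 0.05 in edgeR's test. These were 10 of 44 in the highest tertile, 5 of 43 in the middle and 1 of 41 in the lowest. The 10 include the similar sequences let-7a-5p, let-7f-5p and miR-98-5p. By first base the median was 0.02 for G, 0.14 for C, 0.15 for A and 0.17 for U, and among abundant miRNAs 0.16 for G (7 miRNAs), 0.09 for C, 0.24 for A and 0.17 for U. The letters UAA or UAG after an A or a G, the core of a motif described for PUS1, occurred on the miRNA strand in 91 of the 463 (19.7%) and in 17.6% of all 1679 RefSeq mature miRNAs in the table used. Their median change was 0.20 beside 0.14 for those without the letters, and among abundant miRNAs 0.18 beside 0.19. UNUAA or UNUAG, described for PUS7, which can overlap the first set, occurred in 48 (10.4%, beside 10.4% of all) with a median change of 0.09 beside 0.15 without. Such a match is a description of letters and not of a modified site. The 5p and 3p arms had median changes of 0.15 each.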

How the data were processed

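The authors trimmed the 3′ adapter and mapped the small RNA reads with the SeqImp pipeline in its default mouse setting (mm10, Ensembl 89 and miRBase 21), and deposited estimated counts of mapped reads per mature miRNA and locus, with reads of several loci divided among them. These estimated counts were not normalized. The 18 columns of distinct read sequences were not used. The row of total mapped reads, of which 5.47% to 38.2% lay outside miRNA rows in these libraries, was not tested and gave library sizes in 1 alternative only. Rows of the same mature miRNA were summed (78 miRNAs had several), and sums were rounded to whole numbers.

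The 12 libraries were compared with edgeR 4.0.16 in R 4.3.3: filterByExpr by group (538 miRNAs left), TMM factors, and glmQLFit and glmQLFTest with 4 group means and no block. The change was the interaction contrast, tested two-sided at a threshold of 0.05 on p adjusted by Benjamini-Hochberg. SE was derived from the estimate and its F statistic (the estimate over the root of F), and 95% intervals use that SE. CPM use effective library sizes, and ratios formed without a model use log2(CPM + 0.5). Depth was 4079020 to 15099781 mapped reads, and reads are not independent molecules, so precision comes from the replicates. The step was also run on simulated counts, which had the same spread setting in every group. The spread of the real libraries was uneven between groups, so that run does not show how the test behaves here.

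Named miRNAs were the 9 let-7 guides and the 4 miRNAs singled out by the study, the 8 with the smallest p in each direction among those with a mean of at least 100 CPM, the 10 most abundant in WT input, and the highest and lowest of a list. The members, lists and tests were chosen with earlier results of these data known. Sequences and positions are from RefSeq on GRCm38.p6, and host genes from GENCODE M21 on the same assembly. Alternatives were other scalings, no filter, the largest row per miRNA, replicate blocks, all 18 libraries, DESeq2 1.42.0 and each library left out.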

Additional observations from a re-analysis of the deposited data

Results flagged for a closer look

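miR-374b-3p was singled out because the conditions lay on opposite sides of no enrichment. Every WT IP library (6.69, 8.41 and 7.04 CPM) was below every WT input library (8.96, 8.92 and 9.74 CPM), and every KD3 IP library (8.69, 9.27 and 12.1 CPM) was above every KD3 input library (6.54, 7.20 and 8.67 CPM). The fitted change was 0.77 ± 0.35 (SE), and edgeR's quasi-likelihood test of the difference gave an unadjusted p of 0.0411 and a Benjamini-Hochberg adjusted p of 0.576. Neither ratio passed in its own condition, with adjusted p of 0.259 in WT and 0.107 in KD3. It was the single miRNA of 538 with this pattern, at a mean of 8.52 CPM.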

How the results depend on the processing

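The count of miRNAs with a change in enrichment was 0 in the reported fit and in 19 of the 21 alternatives. It was 2 with no filter (miR-17-3p and miR-21a-3p, of 1175 tested) and 1 with DESeq2 (miR-409-3p), and the cause was not tested. At an unadjusted p under 0.05 there were 42, and 15 to 67 in the alternatives fitted with edgeR. With the replicate block by letter 0 passed and 44 had an unadjusted p under 0.05, with IP and input paired within a letter 0 and 31, and neither block moved another count by over 1.5 times. The letters were not taken to pair the libraries: over the miRNAs with a mean log2 CPM above 5, deviations from the group means of same-letter libraries correlated by 0.22 to 0.58 between WT and KD3 input, where 5 of 6 libraries correlated best with their own letter, but by -0.21 to 0.36 between the other pairs of groups. Calls of IP against input ranged from 361 to 417 in WT (reported 380) and from 357 to 404 in KD3 (reported 396), within 1.5 times of the reported counts. Leaving out any 1 library gave 0 changes. Of 80 named miRNAs, 51 kept the sign of their change relative to the median of all in every alternative that tested them, and 3 passed in at least 1. Many of the 80 were chosen for their p or their change in these libraries, so a kept sign partly follows from the choice. The share over all miRNAs was not counted. Without replicate C of the KD3 IP, 11 of 29 lists had their lowest relative median.

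With 3 replicates and a median SE of 0.43, 208 of 538 miRNAs had an interval within 2-fold and 3, of few reads (miR-17-3p, miR-21a-3p and miR-5114), an interval wholly beyond it. The intervals of the others reached past 2-fold in at least 1 direction. The IP libraries were scaled to miRNA reads alone, and the table used here gives no outside standard.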
